A study of Homo sapiens with 30 samples.

Results

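The genes described here are the 5 subunits of the transcription factor NF-kB (NFKB1, NFKB2, REL, RELA and RELB), 4 inhibitors that restrain it (NFKBIA, NFKBIB, NFKBIE and TNFAIP3) and the atypical IkB protein BCL3. They were chosen by gene name from the 58780 genes of the count table. All 10 passed the filter on low counts. The assay was PRO-seq (precision run-on sequencing), in which engaged RNA polymerases add labelled nucleotides to their transcripts in permeabilised cells. The cells were A549, an established human lung adenocarcinoma line.

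The 30 libraries formed 15 groups of 2. All groups, untreated cells included, carried 0.01% DMSO according to the labels. Dexamethasone (Dex, a synthetic glucocorticoid) was given at 100 nM. GSK591, an inhibitor of the Type II arginine methyltransferase PRMT5, and MS023, an inhibitor of the Type I arginine methyltransferases, were each given at 1 µM. The groups were untreated cells, Dex for 15 min, Dex for 3 h, Dex together with GSK591 for 3 h, Dex together with MS023 for 3 h, GSK591 or MS023 by itself for 2, 4 or 7 days, and cells kept in GSK591 or MS023 for 7 days that then received Dex for 15 min or for 3 h. The labels name 1 untreated group, marked 15 min, and it served as the comparison for every treatment time. Days with an inhibitor can therefore not be told apart from days in culture. Nothing in the labels says that the 2 samples of a group came from separate cultures, so p-values measure the spread between these samples, which may be technical.

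NF-kB proteins bind DNA as dimers. The precursors encoded by NFKB1 and NFKB2 are processed to p50 and p52, which lack an activation domain of their own, whereas RELA, REL and RELB carry one. In resting cells the IkB proteins hold the dimers in the cytoplasm. In the canonical pathway the IKK complex marks IkB alpha (NFKBIA) for destruction and frees RELA:p50, while in the non-canonical pathway the kinase NIK (MAP3K14) drives processing of p100 to p52, the partner of RELB. Several of the genes are NF-kB targets themselves, which gives the pathway its feedback loops. Glucocorticoids restrain NF-kB signalling, and NFKBIA and TNFAIP3 are among the genes the glucocorticoid receptor is known to act on.

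Total counts per library ran from 8441211 to 13069598, with mitochondrial genes taking 58.7% to 78.7%. Counts outside mitochondrial and ribosomal RNA genes ran from 2470629 to 3908469, and single counts of the 10 genes from 16 to 2618. Levels are given as CPM, a gene's share of its library's counts, scaled by TMM, a factor that equalises the bulk of genes between libraries. All 6 epithelial markers examined (keratins, EPCAM and CDH1) passed the filter, with a summed level of 384 to 1114 CPM. Of 5 lung epithelial markers, NKX2-1 and SFTPA1 did not pass. The summed levels of leukocyte, endothelial and fibroblast markers stayed below those of the keratins, at 1.31 to 8.14, 0.208 to 2.24 and 3.05 to 9.96 CPM, with 2 of 6, 2 of 3 and 2 of 4 of them passing the filter. Median counts of the 6 leukocyte markers ran from 0 for CD3E and LYZ to 25 for CD14. EPCAM and CDH1 had medians of 24 and 29.5 counts, no higher than the fibroblast marker COL1A1 at 37.5. The difference in summed levels therefore rests mainly on KRT7, KRT8 and KRT18, with medians of 2374, 2511 and 1074.5 counts. In bulk libraries fewer cells of a type and less RNA per cell cannot be told apart. The 2 libraries of MS023 with Dex at 3 h were the least alike of any group (Pearson r = 0.923 across 11117 genes, against 0.959 to 0.983 in the other groups), and leaving out that group ended no call on the 10 genes.

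Because NF-kB feedback acts through kB sites in the genes' own promoters, RefSeq promoter windows (GRCh38.p14) of 250 bases before an annotated start were searched. The table held 13 windows of 8 of the genes, and none of RELB and NFKBIE. The kB consensus, read on both strands, occurred in 7 of the 13 windows, and 6 of the 8 genes had it in at least 1 window. It occurred in 9.96% of all 35116 windows of this length. The short element AGAACA recognised by 1 subunit of the glucocorticoid receptor, read on both strands, occurred in none of the 13 windows and in 12.4% of all windows, and its palindromic response element in none of the 13 and in 0.00285% of all. A match describes letters only, and no match says only that these letters are not in this window. The NFKBIA window lies on the minus strand at chr14:35404750-35404999, directly upstream of the gene, and is printed whole because NFKBIA rose with Dex in every setting tested. The matched letters are in capitals.
NFKBIA: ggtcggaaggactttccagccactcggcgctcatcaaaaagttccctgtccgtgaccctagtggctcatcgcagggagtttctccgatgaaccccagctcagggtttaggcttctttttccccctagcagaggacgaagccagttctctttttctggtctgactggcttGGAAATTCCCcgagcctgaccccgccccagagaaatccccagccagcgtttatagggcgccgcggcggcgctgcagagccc

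The matched sites of the other genes whose nascent signal moved are printed with their flanks, the match again in capitals. The TNFAIP3 window held a pair of neighbouring matches, starting 67 and 55 bases before the RefSeq start, the second of which runs past the printed end. The NFKB2 gene has several starts. Before one of them a pair of matches that overlap, starting 107 and 106 bases before it and printed as 1 stretch, was followed by a match 78 bases before it, and before another start the matches began at 176 and 21 bases. NFKB1 is shown as a subunit gene whose window holds a match and whose level did not pass the test in any comparison.
TNFAIP3 chr6:137867192-137867201: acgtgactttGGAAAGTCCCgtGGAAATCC
NFKB2 chr10:102394471-102394481: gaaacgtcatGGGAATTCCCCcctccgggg
NFKB2 chr10:102394500-102394509: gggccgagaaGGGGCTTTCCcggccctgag
NFKB2 chr10:102395529-102395538: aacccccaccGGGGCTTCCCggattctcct
NFKB2 chr10:102395684-102395693: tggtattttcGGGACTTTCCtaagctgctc
NFKB1 chr4:102501310-102501319: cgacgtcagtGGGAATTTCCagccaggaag
In GENCODE 29 the TNFAIP3 matches and the NFKB2 matches lie in an exon of an annotated transcript, except the NFKB2 match at 176 bases, which lies in an intron. The NFKBIA and NFKB1 matches lie upstream of the gene. BCL3 and RELA had no match in their windows.

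In untreated cells NFKBIA had the highest level per length, 30.6 ± 4.04 CPM per kb of exon (SD, n = 2). BCL3 followed at 10.0 ± 0.382, NFKB2 at 8.45 ± 0.473 and RELA at 6.44 ± 0.303 CPM per kb. The lowest were NFKB1 (1.78 ± 0.0548), TNFAIP3 (0.939 ± 0.0824) and REL (0.789 ± 0.0528). NFKB1 spans 115974 bases of chromosome 4, of which exons make up 5.40%, whereas NFKBIA spans 3239 bases of chromosome 14, of which exons make up 73.3%. In GENCODE 29 (GRCh38) NFKBIA lies at chr14:35401511-35404749 on the minus strand. On the plus strand NFKB2 lies at chr10:102394110-102402529, TNFAIP3 at chr6:137867188-137883312, RELB at chr19:45001430-45038198 and BCL3 at chr19:44747705-44760044. The features counted are not given in the sources used here, so an order by exonic length is a description of this table. REL shares 5702 bases of exon with AC010733.2 on the same strand, and its counts are uncertain for that reason. BCL3 shares 65 bases with MIR8085 on the same strand. TNFAIP3, RELA and NFKBIB share 95, 9 and 40 bases with genes on the opposite strand, and the use of strand in counting is not given.

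Across the 15 groups the genes differed in how far they moved. The ratio of the highest to the lowest group mean was 4.40 for NFKB2, 4.36 for RELB, 3.60 for NFKBIA and 3.44 for TNFAIP3. It was 1.66 for NFKB1 and 1.51 for RELA, the main activating subunit. When the 15 group levels of a gene were put in order, 7 of the 14 neighbouring pairs of groups did not overlap for NFKB2, 5 for RELB, 4 for BCL3 and 3 for NFKBIA. For NFKB1 all 14 neighbouring pairs overlapped. The groups were ordered by the same values that were checked for overlap, and no share over all genes is given. These numbers therefore describe the order and cannot say whether it is unusual. For NFKBIA the 8 groups with Dex (142 to 193 CPM) lay above the 7 without it (49.3 to 79.4 CPM). For NFKB2 and RELB the untreated cells stood highest, apart from every other group.

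**Figure D1:**
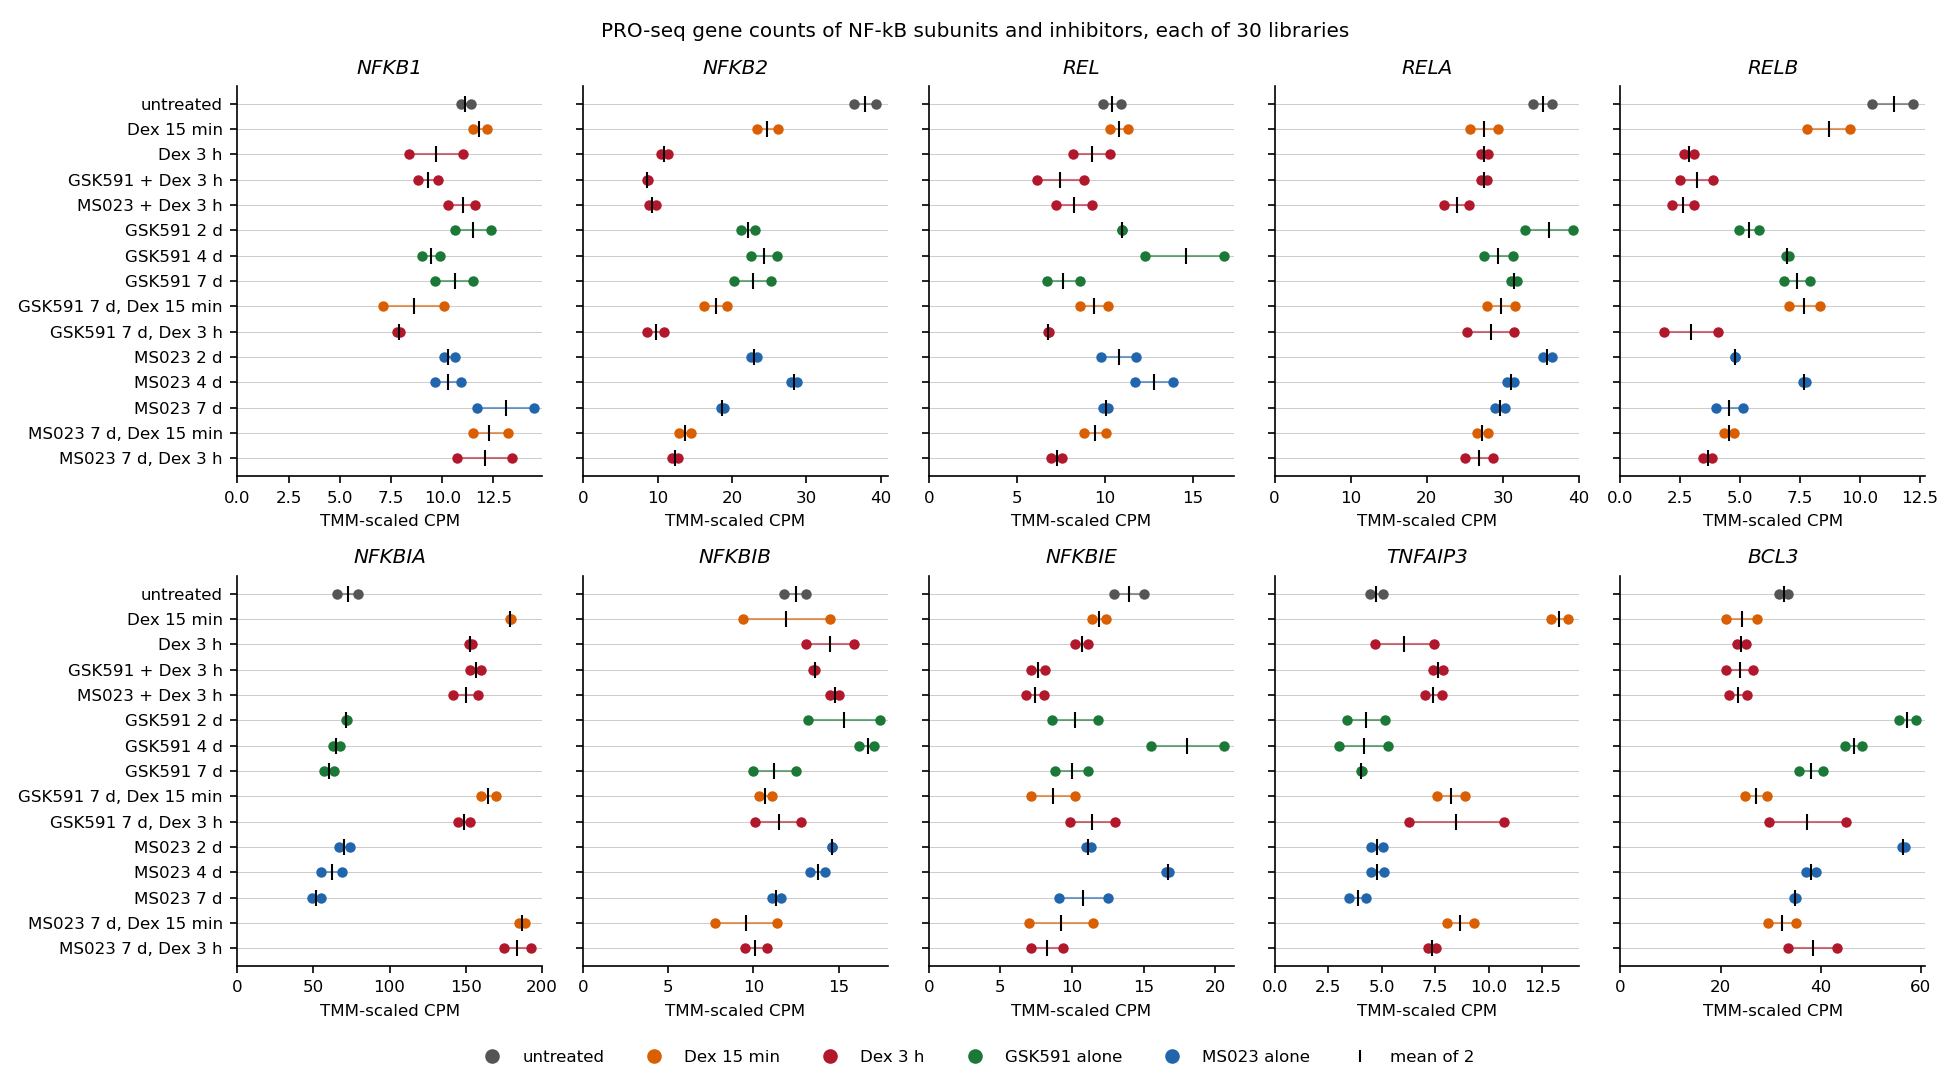
TMM-scaled CPM of each of the 10 genes (horizontal axes, 1 panel a gene) in both libraries of each of the 15 groups (rows); points are libraries and the black tick is the mean of 2. NFKBIA libraries with Dex sit at 142 to 193 CPM and those without at 49.3 to 79.4, while untreated NFKB2 (36.4 and 39.4 CPM) sits above all other groups.

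The first comparison asked how the genes responded to Dex alone. At 15 min NFKBIA, which encodes IkB alpha, and TNFAIP3, which encodes the ubiquitin-editing enzyme A20, rose, and NFKB2 fell. NFKBIA measured 65.8 and 79.4 CPM in untreated cells and 180 and 179 CPM after 15 min. The groups did not overlap, and the log2 fold change was 1.30 ± 0.107 (SE; edgeR quasi-likelihood test, Benjamini-Hochberg adjusted p = 5.06e-13). TNFAIP3 rose from 4.45 and 5.04 to 13.7 and 12.9 CPM, by 1.48 ± 0.231 on the log2 scale (edgeR adjusted p = 2.33e-05), also without overlap. These 3 calls of 10 genes stood against 1.26% of all 22919 genes tested. With 2 libraries a group, an exact permutation test of 1 gene cannot go below 0.333, so the p-values given rest on a spread estimated from all groups.

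At 3 h NFKBIA was still raised, whereas TNFAIP3 was not called. NFKBIA stayed at 152 and 154 CPM, 1.07 ± 0.107 above untreated cells on the log2 scale (edgeR adjusted p = 6.35e-11). TNFAIP3 was at 4.68 and 7.45 CPM, overlapping the untreated libraries, with a log2 fold change of 0.34 and a 95% interval of -0.18 to 0.86. Its fall from 15 min to 3 h was itself called, at -1.15 ± 0.226 (edgeR adjusted p = 2.81e-04). Without replicate 1 of Dex at 3 h that value was -0.84, with an adjusted p of 0.0508. For NFKBIA the change from 15 min to 3 h was -0.23 (95% interval -0.44 to -0.02) and did not pass the test. The IkB genes NFKBIB and NFKBIE did not pass the test at either time. NFKBIE was at 10.2 and 11.1 CPM after 3 h, against 12.9 and 15.0 untreated.

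NFKB2, the precursor of p52, fell in steps with Dex. Its levels were 39.4 and 36.4 CPM in untreated cells, 23.3 and 26.2 CPM at 15 min and 10.5 and 11.4 CPM at 3 h. None of the 3 groups overlapped another. The log2 fold change was -0.61 ± 0.127 at 15 min (edgeR adjusted p = 0.00246) and -1.79 ± 0.142 at 3 h (edgeR adjusted p = 4.02e-14), a level 3.46-fold lower. The call at 15 min was lost without untreated replicate 1 (edgeR adjusted p = 0.106), without replicate 1 of Dex at 15 min (0.157) and with scaling to total counts (0.554), where the changes were -0.56, -0.53 and -0.29.

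RELB, which pairs with p52, had fallen by 3 h. It measured 12.2 and 10.5 CPM untreated, 9.58 and 7.80 CPM at 15 min and 2.66 and 3.05 CPM at 3 h. The change at 15 min was -0.38 (95% interval -0.81 to 0.04), and that at 3 h was -1.99 ± 0.253 (edgeR adjusted p = 3.81e-08), a level 3.97-fold lower. Between 15 min and 3 h RELB fell by 1.61 on the log2 scale and NFKB2 by 1.18, with edgeR adjusted p of 1.12e-05 and 3.50e-08. The 3 h comparison thus called 3 of the 10 genes (NFKB2 and RELB lower, NFKBIA higher) where 10.5% of all genes were called. The step from 15 min to 3 h called 3, all lower, where 10.8% were called.

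The remaining subunits and BCL3 shifted less. RELA measured 34.0 and 36.4 CPM untreated, 29.3 and 25.7 at 15 min and 28.0 and 27.1 at 3 h. Both Dex groups lay below the untreated libraries, but the changes of -0.36 and -0.35 did not pass the test (edgeR adjusted p = 0.220 and 0.0543). The 3 h value of RELA passed under 3 of 12 alternatives, with adjusted p from 0.0347 to 0.741. BCL3, a nuclear IkB protein that binds p50 and p52 dimers, went from 31.7 and 33.5 CPM to 27.2 and 21.1 at 15 min and 23.2 and 25.0 at 3 h, with changes of -0.43 and -0.44 that did not pass either (edgeR adjusted p = 0.312 and 0.0750). NFKB1 and REL overlapped between untreated cells and Dex at 3 h. Their changes there were -0.21 (95% interval -0.58 to 0.16) and -0.16 (-0.56 to 0.23).

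Adding an inhibitor together with Dex for 3 h was next compared with Dex alone for 3 h. None of the 10 genes passed the edgeR test with GSK591, where 0% of all genes did, or with MS023, where 0.196% did. At an unadjusted p under 0.05 there were 2 genes with GSK591 and 1 with MS023, and DESeq2 called none in either comparison. NFKBIE was lowest in these groups, at 7.15 and 8.11 CPM with GSK591 and 6.78 and 8.02 with MS023, against 10.2 and 11.1 with Dex alone. Its changes of -0.48 (95% interval -0.94 to -0.02) and -0.52 (-0.98 to -0.06) had edgeR adjusted p of 0.863 and 0.292. For NFKBIA the intervals were narrow, -0.17 to 0.25 with GSK591 and -0.23 to 0.19 with MS023. RELB allowed more, from -0.44 to 0.77 and from -0.76 to 0.49.

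With GSK591 or MS023 alone NFKB2 and RELB were lower and BCL3 higher at 2 days, measured against the same untreated libraries as Dex. The labels name no untreated group kept for days. Whether days in culture without inhibitor move these genes was therefore not tested. After 2 days NFKB2 was at 21.2 and 23.1 CPM with GSK591 and 22.6 and 23.3 CPM with MS023, below the 36.4 and 39.4 CPM of untreated cells. Its log2 fold changes were -0.77 ± 0.131 and -0.72 ± 0.127 (edgeR adjusted p = 1.63e-04 and 7.33e-05). RELB was at 5.78 and 4.94 CPM with GSK591 and 4.79 and 4.80 CPM with MS023, against 10.5 and 12.2 CPM. Its changes were -1.08 ± 0.231 and -1.24 ± 0.225 (edgeR adjusted p = 0.00230 and 1.18e-04). The GSK591 call on RELB was lost without untreated replicate 1 (edgeR adjusted p = 0.0534) or without GSK591 replicate 2 (0.0787).

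BCL3 went the other way at 2 days. It rose from 31.7 and 33.5 CPM to 55.7 and 59.0 CPM with GSK591 and to 56.3 and 56.8 CPM with MS023, far from overlap. The log2 fold changes were 0.81 ± 0.150 and 0.79 ± 0.148 (edgeR adjusted p = 8.38e-04 and 3.79e-04). At 4 days it was at 48.3 and 44.9 CPM with GSK591, still called at 0.52 ± 0.149 (edgeR adjusted p = 0.0139), and at 37.0 and 39.0 CPM with MS023, not called. The 4 day call was lost without untreated replicate 1 (edgeR adjusted p = 0.117), without untreated replicate 2 (0.0624) and without GSK591 replicate 1 (0.121). At 7 days it stood at 40.5 and 35.6 and at 34.6 and 35.0 CPM, and neither passed the test. Scaling to total counts gave BCL3 0.97 at 4 days and 1.11 at 7 days of MS023, both called (edgeR adjusted p = 0.00281 and 4.11e-04), against 0.22 and 0.09 under TMM.

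NFKB2 stayed low over the week. With GSK591 it changed by -0.64 at 4 days (edgeR adjusted p = 1.96e-04) and -0.74 at 7 days (5.04e-05). With MS023 it changed by -0.42 at 4 days and by -1.02 at 7 days, with edgeR adjusted p of 0.0147 and 5.97e-08, where scaling to total counts gave 0.33 and 0.01 instead. The 4 day call with MS023 was lost in DESeq2 (adjusted p = 0.0875), with no filter on low counts (edgeR adjusted p = 0.0640) and without untreated replicate 1 or either MS023 library (edgeR adjusted p = 0.0722 to 0.156). RELB was at 6.91 and 7.02 CPM after 4 days of GSK591, a change of -0.70 (edgeR adjusted p = 0.0173), and at 7.90 and 6.83 CPM after 7 days, a change of -0.62 that missed the threshold (0.0541). The 4 day call was lost in DESeq2 (adjusted p = 0.0862) and without untreated replicate 1 or either GSK591 library (edgeR adjusted p = 0.0864 to 0.165). With MS023 RELB was at 7.60 and 7.76 CPM at 4 days, a change of -0.56 (edgeR adjusted p = 0.0578), and at 5.10 and 3.98 CPM at 7 days, a change of -1.32 ± 0.218 (1.80e-05). The RELB values at 7 days of GSK591 and at 4 days of MS023 each passed under 3 of 12 alternatives.

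NFKBIA fell with MS023 at 7 days under TMM scaling, to 54.7 and 49.3 CPM from 65.8 and 79.4, by -0.48 ± 0.108 (edgeR adjusted p = 0.00125), and rose by 0.53 under scaling to total counts. The TMM call was lost without untreated replicate 2 (edgeR adjusted p = 0.102). REL, NFKBIB and NFKBIE were highest after 4 days of GSK591 (12.3 and 16.8, 16.2 and 17.1, and 15.5 and 20.6 CPM), but their changes of 0.49, 0.42 and 0.37 did not pass the test (edgeR adjusted p = 0.0558, 0.0898 and 0.208). They passed under 5, 2 and 1 of 12 alternatives, with the lowest edgeR adjusted p at 0.0109, 0.00976 and 0.0209, all under scaling to total counts. NFKB1, RELA and TNFAIP3 passed the test at none of the 6 inhibitor times. With MS023 they passed under 1 of 12 alternatives, NFKB1 and TNFAIP3 at 4 and 7 days and RELA at 2, 4 and 7 days.

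Read against the background, the GSK591 comparisons called 3, 3 and 1 of the 10 genes at 2, 4 and 7 days, where 5.64%, 17.2% and 13.2% of all genes were called. The MS023 comparisons called 3, 1 and 3, where 10.4%, 14.2% and 13.6% were called. The share at 7 days of GSK591 and at 4 days of MS023 was therefore near the background. The median log2 fold change of the 10 genes ran from -0.27 to 0.01 over these 6 comparisons, that of all genes from 0.00 to 0.01.

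**Figure D2:**
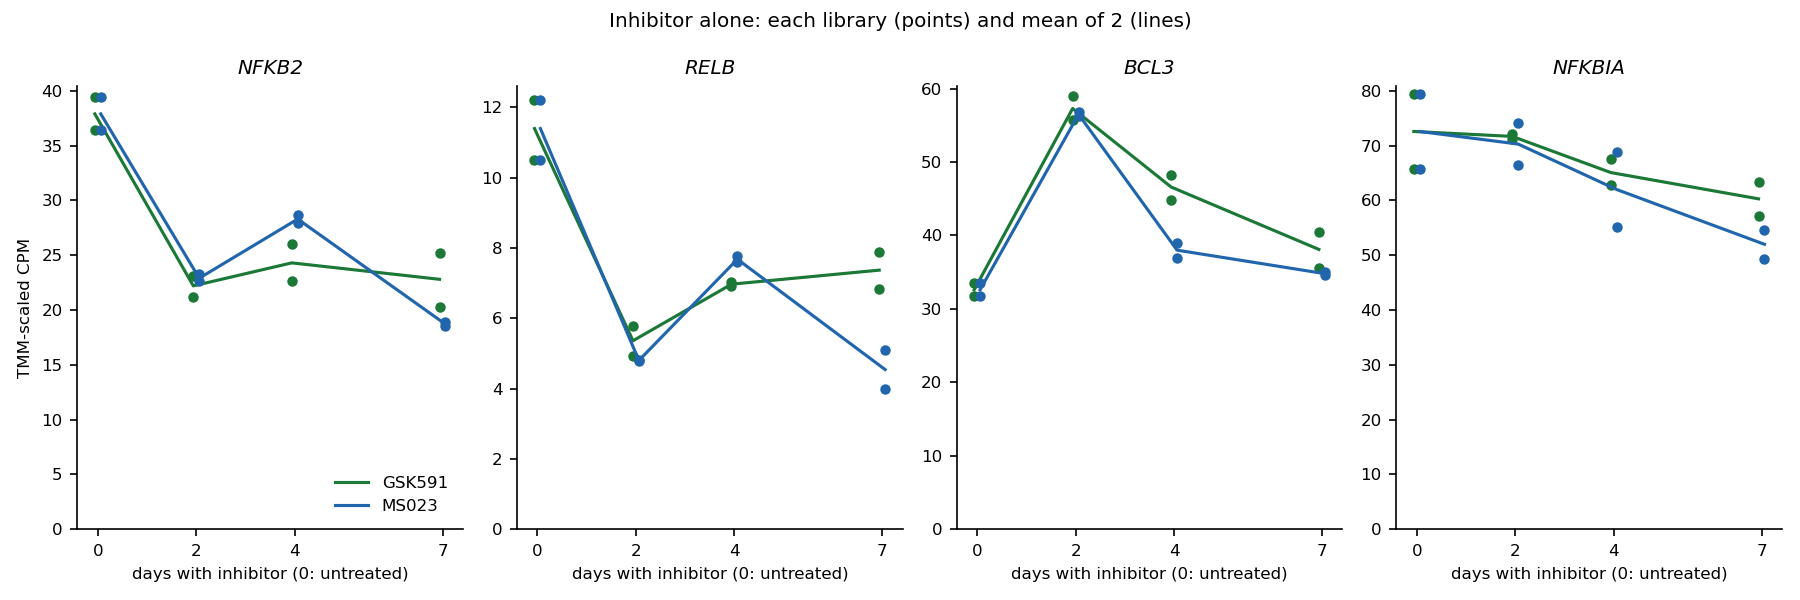
TMM-scaled CPM of NFKB2, RELB, BCL3 and NFKBIA against days with GSK591 (green) or MS023 (blue), with the shared untreated libraries at day 0; points are libraries and lines join means of 2. NFKB2 falls from 36.4 and 39.4 CPM to between 20.3 and 28.7 CPM with either inhibitor, except with MS023 at day 7 (18.5 and 18.9 CPM), while BCL3 peaks at 2 days (55.7 to 59.0 CPM).

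The mitochondrial share of counts moved with MS023, at 58.7% to 66.1% in the 6 libraries of MS023 alone and 73.4% and 76.0% in untreated cells. Scaling to total counts shifted the median of all genes by 0.68, 0.74 and 1.02 (log2) at 2, 4 and 7 days of MS023. Relative to that shift NFKB2 and RELB lay below the median gene at each time. This restates the TMM values, which also set each gene against the bulk of genes, and is not a separate check. Under that scaling the calls on NFKB2 with GSK591 at 2 and 4 days and MS023 at 2 days, and those on RELB with GSK591 at 2 and 4 days and MS023 at 2 and 7 days, were lost, with changes of -0.79 to -0.05 (edgeR adjusted p = 0.112 to 0.878). When mitochondrial and ribosomal RNA genes were left out before scaling, no call on the 10 genes was lost. That fit was also scaled by TMM, so it cannot decide between TMM and total counts.

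GSK591 and MS023 were compared directly at each time. None of the 10 genes passed at 2 days, where 2.69% of all genes did, or at 4 days, where 6.03% did. At an unadjusted p under 0.05 there were 0 and 1 of them, and DESeq2 called none. At 7 days 1 gene passed, RELB, where 9.38% of all genes did. RELB was at 7.90 and 6.83 CPM with GSK591 and 5.10 and 3.98 CPM with MS023, a difference of 0.70 ± 0.235 (edgeR adjusted p = 0.0478) that turned to -0.34 under scaling to total counts. This call is at the edge of the threshold and was lost without any 1 of the 4 libraries (edgeR adjusted p = 0.0622 to 0.309), with no filter on low counts (0.106) and in DESeq2 (0.161). For NFKB2 the difference at 7 days was 0.28 (95% interval 0.01 to 0.55) and for BCL3 0.13 (-0.17 to 0.44).

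Dex after 7 days of inhibitor was compared with inhibitor alone. NFKBIA and TNFAIP3 rose again in both settings. After GSK591 NFKBIA went from 57.2 and 63.4 CPM to 170 and 160 CPM at 15 min and 153 and 145 CPM at 3 h, and after MS023 from 54.7 and 49.3 CPM to 189 and 185 CPM and to 175 and 193 CPM. The log2 responses were 1.45 ± 0.109 and 1.31 ± 0.109 after GSK591 (edgeR adjusted p = 2.49e-14 and 2.28e-13). They were 1.85 ± 0.108 and 1.82 ± 0.108 after MS023 (2.85e-18 and 9.75e-19). With Dex at 15 min the NFKBIA libraries of the 3 settings ran from 160 to 189 CPM, and before Dex from 49.3 to 79.4 CPM, lowest with MS023.

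TNFAIP3 was still above inhibitor alone at 3 h. After GSK591 it went from 4.07 and 4.02 CPM to 8.88 and 7.60 CPM at 15 min and 6.29 and 10.7 CPM at 3 h, with responses of 1.01 ± 0.262 and 1.06 ± 0.260 (edgeR adjusted p = 0.0232 and 0.00384). After MS023 it went from 3.47 and 4.27 CPM to 8.04 and 9.32 CPM and to 7.18 and 7.53 CPM, with responses of 1.16 ± 0.229 and 0.92 ± 0.231 (edgeR adjusted p = 0.00118 and 0.00395). TNFAIP3 held 25 to 139 counts in any library of the study. The call on the 15 min response after GSK591 was lost without any 1 of its 4 libraries (edgeR adjusted p = 0.0728 to 0.201), in DESeq2 (0.0968) and in a fit of only the groups compared (0.0644), while the response itself stayed at 0.91 to 1.13. With scaling to total counts the call was also lost at a response of 1.06 (0.189), as were the MS023 calls at 15 min and 3 h, at 1.02 (0.144) and 0.92 (0.0515). The GSK591 call at 3 h was lost without replicate 2 of GSK591 then Dex 3 h, at 0.63 (0.271), or without GSK591 replicate 1 (0.0515). After MS023 the 15 min call was lost without replicate 2 of MS023 then Dex 15 min (0.0504) or without MS023 replicate 1 (0.0737), and the 3 h call without MS023 replicate 1 (0.0894).

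NFKB2 fell again at 3 h, from lower starting levels. After GSK591 it went from 20.3 and 25.2 CPM to 8.60 and 10.9 CPM, by -1.22 ± 0.151 (edgeR adjusted p = 2.22e-08). After MS023 it went from 18.9 and 18.5 CPM to 12.7 and 12.0 CPM, by -0.60 ± 0.135 (edgeR adjusted p = 0.00118, and 0.130 with scaling to total counts). RELB went from 7.90 and 6.83 CPM to 4.08 and 1.83 CPM after GSK591, by -1.31 ± 0.268 (edgeR adjusted p = 4.16e-04), a call lost without replicate 2 of GSK591 then Dex 3 h (0.0767). After MS023 it went from 5.10 and 3.98 CPM to 3.44 and 3.84 CPM, a change of -0.32 (95% interval -0.80 to 0.16) that did not pass. At 15 min NFKB2 and RELB did not pass the test after either inhibitor.

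The 15 min comparisons called 2 of the 10 genes after GSK591 and 2 after MS023, where 2.09% and 2.07% of all genes were called. The 3 h comparisons called 4 and 3, where 9.85% and 11.1% were called. NFKBIA and TNFAIP3 were the genes called higher in all 4.

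**Figure D3:**
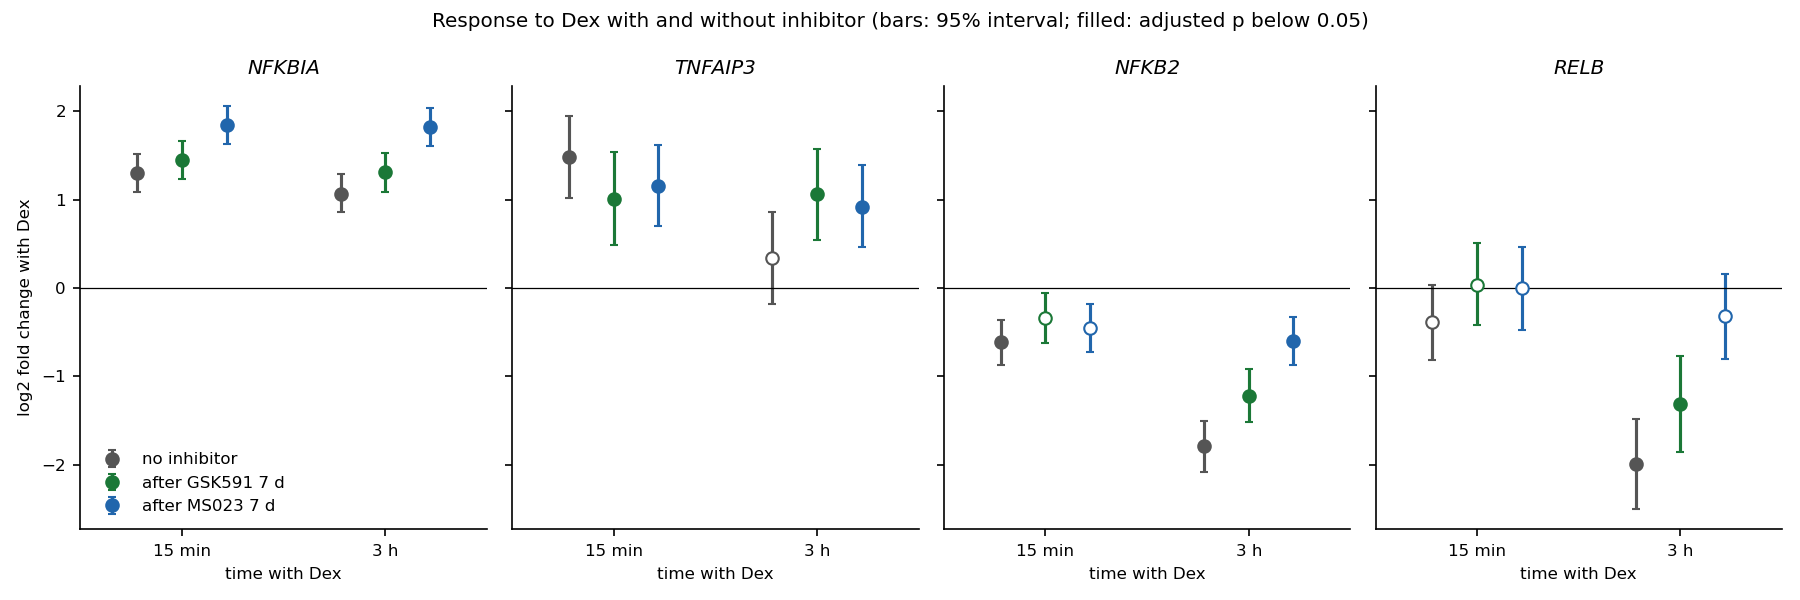
Log2 fold change with Dex at 15 min and 3 h (horizontal axis) for NFKBIA, TNFAIP3, NFKB2 and RELB, without inhibitor (grey), after 7 days of GSK591 (green) and after 7 days of MS023 (blue); bars are 95% intervals and filled points passed the edgeR test. At 3 h NFKB2 changes by -1.79, -1.22 and -0.60 and RELB by -1.99, -1.31 and -0.32 in the 3 settings.

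Whether the response itself differed was tested as an interaction, the Dex response after inhibitor minus that without it. After MS023, 3 of the 10 genes differed at 3 h, where 0.223% of all genes did. The difference was 1.19 ± 0.197 for NFKB2 (edgeR adjusted p = 0.00220), 1.67 ± 0.354 for RELB (0.0239) and 0.75 ± 0.150 for NFKBIA (0.0115). Thus the falls of NFKB2 and RELB were smaller, and the rise of NFKBIA larger, after MS023. The levels reached with Dex at 3 h were close for NFKB2 (10.5 and 11.4 CPM without MS023, 12.7 and 12.0 CPM after it) and RELB (2.66 and 3.05 against 3.44 and 3.84 CPM). The levels before Dex differed more, at 36.4 and 39.4 against 18.5 and 18.9 CPM for NFKB2.

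These interactions share the untreated and MS023 libraries with the comparisons above. For NFKB2 the call held without each of the 8 libraries in turn. That of RELB was lost without 6 of the 8 (edgeR adjusted p = 0.0575 to 0.161) and in DESeq2 (0.116). That of NFKBIA was lost without untreated replicate 2 (0.119), Dex 3 h replicate 2 (0.0658), MS023 then Dex 3 h replicate 2 (0.0609) or MS023 replicate 2 (0.114). None of the 3 passed under scaling to total counts (0.458 to 0.906), which gave 1.01 for NFKB2, 1.49 for RELB and 0.58 for NFKBIA and called 0 of all genes.

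The other 3 interactions called none of the 10 genes by edgeR. For GSK591 at 15 min and MS023 at 15 min 0.00436% of all genes were called, and for GSK591 at 3 h 0.223%. At an unadjusted p under 0.05 there were 0, 1 and 1 of the 10 genes, and DESeq2 called none. For GSK591 at 3 h the values pointed the same way as for MS023 and had wide intervals, 0.57 (95% interval 0.15 to 0.99) for NFKB2 and 0.68 (-0.09 to 1.45) for RELB. TNFAIP3 differed by 0.72 (-0.02 to 1.47) after GSK591 and 0.59 (-0.11 to 1.29) after MS023 at 3 h.

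The authors' deposited tables compare 14 groups with untreated cells, and 8 of these comparisons are also tested here, on the same libraries. Of 20 member calls made here in those 8, 19 had an adjusted p under 0.05 and the same sign in the authors' deposited tables. The exception was NFKBIA after 7 days of MS023, where the authors' deposited table gives -0.23 (adjusted p = 0.0823). For Dex at 15 min the authors' deposited table has 2 of the 10 genes higher and 2 lower, where 3.93% of its genes pass. For Dex at 3 h the authors' deposited table has 1 higher and 5 lower, where 21.9% pass. The 3 genes lower in the authors' deposited table alone are REL (-0.73), NFKBIE (-1.14) and BCL3 (-0.76). Other genes passed only in the authors' deposited tables as well. These were BCL3 at 15 min of Dex (-0.40) and RELB at 7 days of GSK591 (-0.59). With MS023 they were NFKB1 at 2 days (-0.60), RELB (-0.79) and BCL3 (0.51) at 4 days, and RELA (-0.35) and TNFAIP3 (-0.64) at 7 days. For NFKB2 and RELB at 3 h of Dex the authors' deposited table gives -2.62 and -2.92, steeper than the -1.79 and -1.99 found from the gene counts.

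The authors' mean signal orders some of the genes otherwise. In the authors' deposited tables REL has a mean of 152 and NFKB2 of 131, while their median levels over the 30 libraries here were 9.91 and 19.2 CPM. The counts behind the authors' tables are not given in the sources used here. The response to Dex at 3 h after MS023, taken as a difference of the authors' deposited values, was -1.11 for NFKB2, -1.79 for RELB and 1.91 for NFKBIA. Relative to Dex alone these differ by 1.51, 1.13 and 0.73 in the authors' deposited values, the same signs as above. No error can be given for them. RELB thus fell by far more after MS023 in the authors' deposited tables than in the gene counts, where the change was -0.32. In the authors' deposited values TNFAIP3 and NFKBIE also differed from Dex alone by more than NFKBIA, at 1.09 and 0.93. Only NFKBIB differed the other way (-0.20). The positive sign is therefore not particular to the genes called here.

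**Figure D4:**
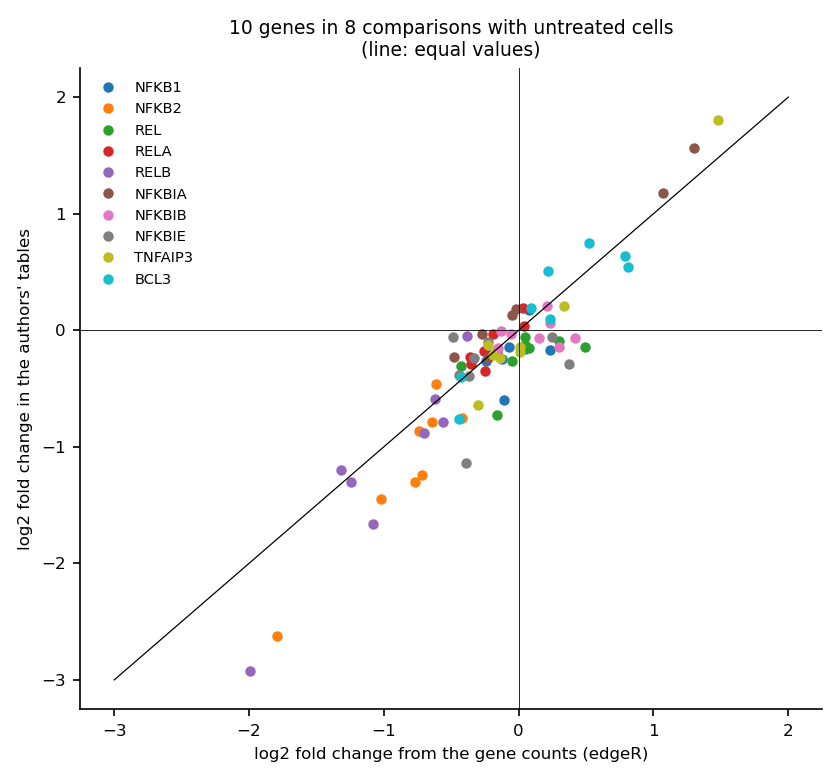
Log2 fold changes of the 10 genes in 8 comparisons with untreated cells, from the gene counts with edgeR (horizontal axis) and in the authors' deposited tables (vertical axis); the line marks equal values. NFKB2 and RELB at 3 h of Dex lie furthest below the line, at -1.79 against -2.62 and -1.99 against -2.92.

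The rest of the pathway was read from 6 lists holding 94 distinct genes, of which 88 were tested. With Dex at 3 h, 13 of the 88 rose and 14 fell, 30.7%, against 10.5% of all genes. The lists were chosen with earlier results of these data known, and 1 of them holds genes picked as induced by glucocorticoids. The share is therefore a description and not a test of the pathway. Of 12 kinase genes tested, 2 fell, MAP3K14 (NIK, the kinase upstream of NFKB2 processing) and MAP3K8. MAP3K14 went from 52.7 and 50.8 to 26.5 and 21.6 CPM, by -1.10 ± 0.116 (edgeR adjusted p = 3.10e-10). Of 20 receptors and adaptors, 2 rose and 2 fell. TRAF3, an adaptor that keeps NIK low, changed by -0.53 and TNFRSF12A, the TWEAK receptor, by -0.75, while TRADD and IRAK1 changed by 0.66 and 0.39. Of 16 ubiquitin and restraint genes tested, BIRC3 rose by 0.79 and BTRC, part of the ligase that marks IkB alpha, fell by 1.06 on the log2 scale. None of the 8 other nuclear IkB proteins and cofactors passed.

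Of 25 NF-kB target genes tested, 4 rose and 8 fell at 3 h, with a median log2 fold change of -0.47 against -0.01 over all genes. The chemokine genes CXCL8, CCL2 and CXCL1 fell by 1.97, 1.54 and 1.39 on the log2 scale, though CXCL8 was low throughout (1.33 and 1.41 to 0.319 and 0.366 CPM). ZC3H12A, which encodes an RNase that cuts cytokine transcripts, rose by 1.54 from 18.0 and 17.2 to 54.3 and 48.4 CPM. C3 and BCL2L1 rose by 1.51 and 0.87, C3 from a low level (1.11 and 1.41 to 3.51 and 3.79 CPM). Of 9 glucocorticoid-induced restrainers, 6 rose and 1 fell, with a median of 1.28. TSC22D3 (GILZ), IRAK3 and ZFP36 rose by 2.89, 2.82 and 2.00, and KLF2 fell by 0.83. IRAK3 was low in both groups (0.556 and 0.403 to 2.66 and 4.27 CPM), with a standard error of 0.466. At 15 min 5 of these 9 had already risen, while 3 of the 25 target genes rose and 2 fell, where 1.26% of all genes were called.

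With GSK591 alone the share of the 88 genes called was 11.4%, 22.7% and 13.6% at 2, 4 and 7 days, against 5.64%, 17.2% and 13.2% of all genes. With MS023 alone it was 30.7%, 29.5% and 22.7%, against 10.4%, 14.2% and 13.6%. The share at 7 days of GSK591, where 8 rose and 4 fell, was near the background. These shares too are a description, since the lists were chosen with earlier results of these data known. Of the 25 target genes 2, 5 and 6 rose and 1, 2 and 0 fell at 2, 4 and 7 days of GSK591. With MS023 8, 6 and 5 rose and 3, 7 and 2 fell. Of the 12 kinases none rose at 7 days, and 1 fell with each inhibitor. In the MS023 interaction at 3 h, 2 of the 88 were higher and 1 lower (3.41%), where 0.223% of all genes were called.

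Genes of like pattern were ranked by Pearson r of log2 CPM over the 15 group means among 11116 genes. This is a description, since the groups share libraries of one experiment and many of the same treatments. The 5 genes most like NFKBIA were PER1 (r = 0.970), POU5F1 (0.961), ZNF281 (0.952), MT2A (0.949) and ANGPTL4 (0.945), with TNFAIP3 at rank 18 (0.905). The gene most like NFKB2 was RELB (r = 0.922), followed by INHBE (0.917), FLJ16779 (0.905), STAMBPL1 (0.903) and SIM2 (0.900). NFKBIA and NFKB2 had r = -0.671, and NFKB1 had no r above 0.285 with any of the other 9 genes.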

How the data were processed

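PRO-seq gene counts of A549 cells were analysed, with 15 groups of 2 samples taken from the labels. The deposited count table holds unnormalised whole-number counts for 58780 genes. Per the submitters' processing notes, Subread and featureCounts 2.0.1 were used with hg38, and the feature type and use of strand are not given in the sources used here. All identifiers matched GENCODE 29. The authors also deposited 14 comparison tables whose columns are those of DESeq2, per the file headers. Their mean signal is the authors' average of normalised counts, and their log2 fold changes, standard errors and p-values are the authors' values. Reads were not reprocessed.

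Counts were tested with edgeR 4.0.16 (R 4.3.3) by the robust quasi-likelihood test after TMM scaling. A single fit held the 15 groups and left 15 residual degrees of freedom. After filterByExpr (count of at least 10, total of at least 15) 22919 genes remained. The 22 comparisons were each adjusted by Benjamini-Hochberg over all genes at 0.05, two-sided. The common biological coefficient of variation was 10.6%. A standard error is the log2 change divided by the root of F. The procedure was tested on simulated data.

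The genes and pathway lists were chosen with earlier results of these data known. All 10 genes are named, plus up to 3 called genes each way per pathway list at Dex 3 h and the 5 most like NFKBIA and NFKB2 (mean of at least 5 CPM). Promoter windows came from RefSeq (GRCh38.p14). Alternatives were size factors of DESeq2 within edgeR, scaling by total counts, no mitochondrial and ribosomal RNA genes, no low-count filter, DESeq2 1.42.0, only the groups compared, the replicate number as a block, leaving out each replicate and, chosen after seeing the data, leaving out MS023 with Dex 3 h. No molecular identifiers are mentioned, and the number of counts limits the precision.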

Additional observations from a re-analysis of the deposited data

Results flagged for a closer look

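The response to Dex at 3 h differed after 7 days of MS023 from that without inhibitor for 3 of the 10 genes, by edgeR's interaction test. The difference on the log2 scale was 1.19 for NFKB2, 1.67 for RELB and 0.75 for NFKBIA. Of all genes tested, 0.223% were called. None of the 3 passed under scaling to total counts (edgeR adjusted p = 0.458 to 0.906), and RELB did not pass in DESeq2 (adjusted p = 0.116). The calls on RELB and NFKBIA were also lost without some single libraries, as given above. RELB between GSK591 and MS023 at 7 days was at the edge of the threshold, with a difference of 0.70 on the log2 scale (edgeR adjusted p = 0.0478). It was called under 5 of 12 alternatives, lost without any 1 of the 4 libraries, with no filter on low counts and in DESeq2, and turned to -0.34 under scaling to total counts. No group held enough samples for a test of single outlying libraries.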

How the results depend on the processing

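Each member value was recomputed under each alternative. DESeq2 size factors and leaving out mitochondrial and ribosomal RNA genes each kept 219 of 220 values in direction and on their side of the threshold, no filter on low counts 216, DESeq2 215 and a fit of only the groups compared 212, and none of these reversed a value. Leaving out 1 library at a time kept 998 of 1040, with 39 calls lost, 3 gained and none reversed. Over all genes, Dex at 3 h called 2410, against 1259 with scaling to total counts, 1464 in DESeq2 and 1394 to 1703 without 1 library.

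Scaling to total counts alone kept 170 of 220 and reversed 18. With MS023 it gave NFKBIA 0.62 at 2 days. At 4 days it gave NFKB1 0.63, NFKB2 0.33, RELA 0.56 and NFKBIA 0.50. At 7 days it gave NFKB2 0.01, REL 0.97, RELA 0.77, NFKBIA 0.53, NFKBIB 0.89, NFKBIE 0.64 and TNFAIP3 0.72. For GSK591 minus MS023 at 7 days it gave NFKB2 -0.78, RELA -0.96, RELB -0.34, NFKBIA -0.84, TNFAIP3 -0.98 and BCL3 -0.90. The number of the 10 genes called became 1 for GSK591 at 2 days, 5, 8 and 8 for MS023 at 2, 4 and 7 days, 9 for GSK591 minus MS023 at 7 days, 1 for Dex 15 min after GSK591, 1 for Dex 15 min after MS023, 1 for Dex 3 h after MS023 and 0 for the MS023 interaction at 3 h (0 of all genes). The median of all genes moved with this scaling, as given above. The number of all genes called moved too. It was far higher than under TMM for MS023 at 2, 4 and 7 days, where TMM called 2381, 3247 and 3127 genes. For GSK591 minus MS023 at 7 days it was far higher than the 2149 under TMM. It was lower than the 1292 under TMM for GSK591 at 2 days. It was also lower for these comparisons of Dex after inhibitor and for the interaction. These counts therefore do not show a change particular to the 10 genes.

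The number called was 5 for GSK591 at 4 days, 3 for GSK591 at 7 days, 2 for MS023 at 4 days, 1 for GSK591 minus MS023 at 4 days and 1 for Dex 15 min after GSK591 in fits of only the groups compared. Without the group MS023 with Dex 3 h it was 2 for GSK591 at 7 days and 2 for MS023 at 4 days. It was 0 for MS023 at 4 days and 0 for GSK591 minus MS023 at 7 days both with no filter and in DESeq2, and 1 for Dex 15 min after GSK591 in DESeq2. Leaving out 1 library gave 1 to 3 calls for GSK591 at 4 days, 1 to 2 for GSK591 at 7 days, 0 to 1 for MS023 at 4 days, 0 for GSK591 minus MS023 at 7 days, 1 for Dex 15 min after GSK591, 2 to 4 for Dex 3 h after GSK591, 1 to 2 for Dex 15 min after MS023 and 1 to 3 for the MS023 interaction at 3 h. The number of all genes called moved as well. In the fits of only the groups compared it was higher for the inhibitor comparisons named and lower for Dex 15 min after GSK591. It was higher without the group MS023 with Dex 3 h, and lower with no filter and in DESeq2, for the comparisons named. These counts therefore do not show a change particular to these genes. The cause was not tested.

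With the replicate number as a block the count became 2 for GSK591 at 7 days and 2 for MS023 at 4 days (RELB gained in both) and 4 for Dex at 3 h (RELA gained), and 217 of 220 values kept their direction and side of the threshold. The correlations of the deviations of same-numbered samples ran from -0.451 to 0.487 over 105 pairs of groups (median 0.0214), and 22 of the 105 were over 0.1. Samples of the same number were therefore not paired in the tests above. Whether some of the groups share a batch was not tested, and these correlations cannot decide it. Depth limits RELB and TNFAIP3 most, with as few as 16 and 25 counts in a library.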
